A study of Mus musculus with 6 samples.

Results

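The T-cell receptor complex and the proteins that act just beneath it were followed here as 39 genes, out of 19977 genes in the deposited table. The members were fixed by name. They comprise the 4 invariant CD3 and zeta chains, the coreceptor Cd4, the adhesion receptor Cd2, and the kinases, adaptors, enzymes, phosphatases and ubiquitin ligases that start or dampen the receptor signal. By their textbook role 23 members were classed as activating and 14 as inhibitory, and 2 (Cd6 and Themis) were put in neither class. All 39 were found in the table, and all 39 passed the filter on low values (a mean of at least 1 FPKM, fragments scaled by transcript length and library size, over the 6 libraries). Wild-type C57BL/6 mice gave the CD4+ T cells, which were taken from spleen and lymph nodes and sorted by flow cytometry. Every sample was kept for 6 hours with antibodies to CD3 and CD28 before RNA was made, so the controls were stimulated too and no resting cells are compared. Young mice were 6 to 8 weeks old (coded as 1 month in the sample titles) and old mice were 11 months old, with 3 libraries per group.

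The T-cell receptor has no enzyme of its own. When it binds antigen, or is crosslinked by an antibody to CD3, the Src-family kinases Lck and Fyn phosphorylate paired tyrosines in the CD3 and zeta tails, Zap70 docks there, and Zap70 phosphorylates the adaptors Lat and Lcp2 (SLP-76). These gather phospholipase C gamma 1 and exchange factors that lead to calcium, protein kinase C and Ras signals. The chain is held back by the kinase Csk, tyrosine phosphatases, Cbl ubiquitin ligases and diacylglycerol kinases, so the balance of the activating and inhibitory sides sets how strongly a CD4+ T cell answers.

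Libraries held between 16932551 and 18708205 expected counts, and the lowest count of any member in any library was 220 (Sla2). Young replicate 1 stood apart from all others. Levels are given as CPM, counts scaled to a common library total with TMM factors. The log2 CPM of young replicate 1 had a correlation of 0.927 with young replicate 2 and of 0.914 with young replicate 3, while those libraries had one of 0.982 between them. These values are across genes, which are not independent. In that library 10 of 39 members lay at least 2-fold from the mean of young replicates 2 and 3, against 19% of the 10509 genes tested. Between young replicates 2 and 3, 0 of 39 members differed that much, against 3.26% of genes. Results are therefore given with and without young replicate 1. Without it the young group holds only young replicates 2 and 3, and it was singled out from these same data. The labels do not say whether the 3 libraries of a group came from separate mice, so every p-value reflects only the spread among these samples, and that spread may be technical.

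The labelled cell type was checked against its markers. Of 6 CD4 T-cell markers 4 were matched in the table, and their summed level was 1316 to 1577 CPM in young and 1395 to 1863 in old libraries. These 4 (Cd4, Cd3d, Cd3e and Cd3g) are members themselves, and the CD3 chains do not mark CD4+ cells alone. Their sum is therefore no separate check on the members. Both CD8 markers together reached 16.5 to 27.4 CPM in young and 11.2 to 14.6 in old libraries, 4 B-cell markers 8.88 to 25.8 and 7.64 to 14.2, and 6 myeloid markers 24.2 to 45.9 and 12.6 to 27.1. All 3 NK-cell markers were below 1 CPM in every library. Genes that mark T-cell states differed as well. The median log2 difference of the tested markers was -1.11 for naive, 1.27 for memory and 1.6 for regulatory T cells. For the 4 tested myeloid markers the median was -1.37, and 0 of them were called. Their directions differed, with S100a8 at -1.86, S100a9 at -1.88 and Lyz2 at -0.87, but Cd68 at 0.56. Summed over 6 memory markers the level was 410.0 to 564 CPM in young and 1071 to 1199 in old libraries, and over 5 regulatory markers 859 to 1273 and 2385 to 2650.0. Summed over 6 naive markers it was 3486 to 6540 CPM in young, the top of that range being young replicate 1, and 2391 to 2722 in old libraries. Single markers weigh on these sums, as Il2ra alone stood at 433, 819 and 537 CPM in young and 1156, 1442 and 1590 in old libraries. The groups overlapped for Il7r, Tcf7 and S100a4, and Il7r was higher in old cells without young replicate 1 (log2 difference 1.43). The memory, regulatory and naive sums move with age beside every member described here, and their part in the results was not tested. In a bulk sample, fewer cells of a type and less RNA per cell cannot be told apart.

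No member passed the test between old and young with all 6 libraries. By the quasi-likelihood F test of edgeR, adjusted over all genes by the Benjamini-Hochberg method, 0 of 39 members had an adjusted p under 0.05, where 0.875% of 10509 genes did. At an unadjusted p under 0.05 there were 5 members (12.8%), against 10.6% of all genes: Cd2, Lcp2 and Ptpn22 on the higher side in old cells, and Txk and Rasgrp1 on the lower side. Limma on log2(FPKM + 1) called 0 members, where it called 0.942% of genes. DESeq2 called 3, where it called 4.77% of genes: Cd2 and Ptpn22 were higher (3.56% of genes) and Txk was lower (1.21%). The groups did not overlap for 8 of 39 members (20.5%), against 16.4% of genes, with 6 members higher (9.9% of genes) and 2 lower (6.54%). Members differed little in size as well: 31 of 39 lay within 0.5 of 0 on the log2 scale (79.5%), against 81.8% of all genes. These shares of members were near the background.

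The same test without young replicate 1 called 3 of 39 members (7.69%), against a background of 8.92% of 10427 genes. Ptpn22 and Themis rose, where 5.97% of genes did, and Txk fell, where 2.94% did. At an unadjusted p under 0.05 there were then 9 members (23.1%), below the 28.3% of all genes. DESeq2 without young replicate 1 called 6 members, or 15.4%, against 17.3% of genes: Cd2, Cd247, Lcp2, Ptpn22 and Themis higher (9.59% of genes) and Txk lower (7.67%). Voom with sample quality weights, which gave young replicate 1 a weight of 0.130 against 0.894 to 1.97 for the other libraries, called Ptpn22 higher (4.74% of genes) and Txk lower (1.5%), with 6.24% of genes called in either direction.

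**Figure D1:**
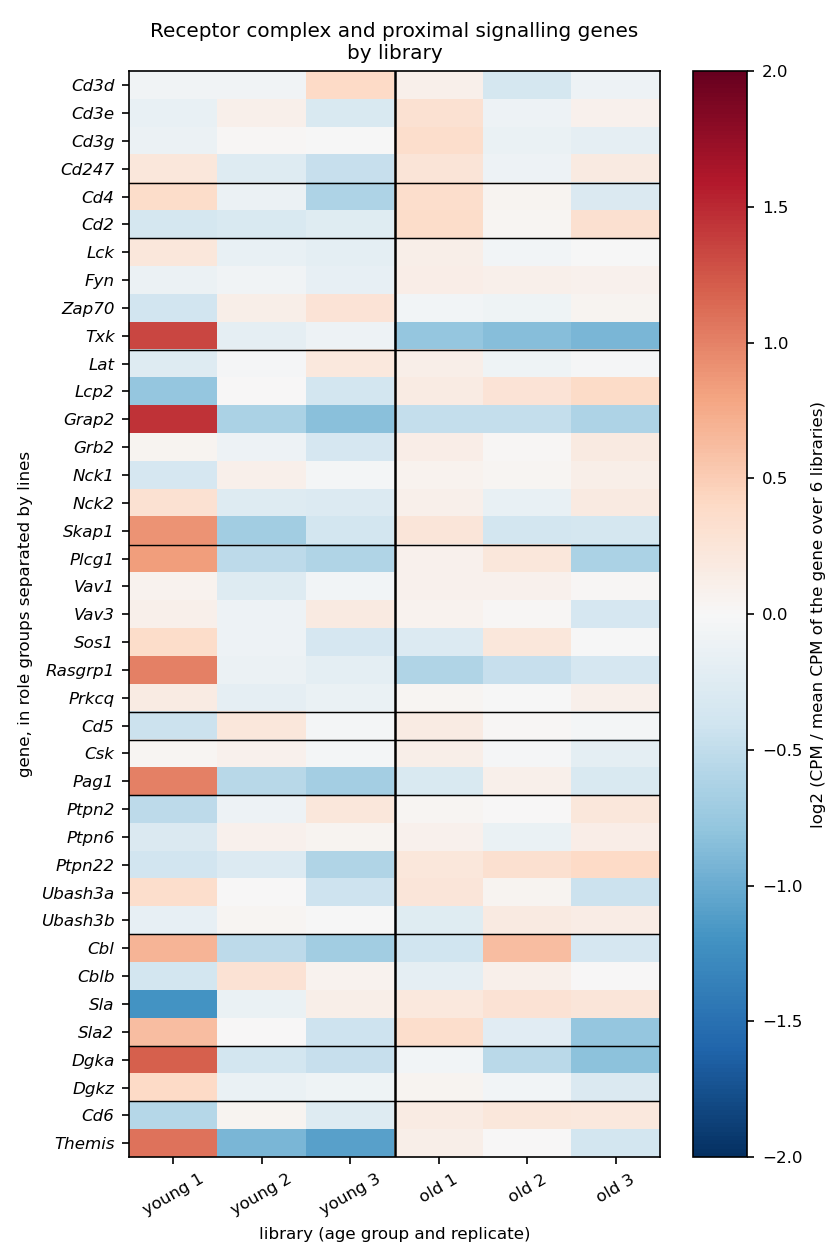
Level of each of the 39 genes in each library, as the log2 of its CPM over its own mean CPM across the 6 libraries (colour, red above and blue below the mean), with genes in role groups from receptor chains at the top to Cd6 and Themis at the bottom. The column of young replicate 1 holds the strongest colours, for example Txk, Grap2, Rasgrp1, Pag1, Dgka and Themis in red and Sla in blue, and the Cd2 and Ptpn22 rows are blue in all young and at or above the mean in all old libraries.

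Set against each other, the activating and inhibitory sides did not part with all libraries. The median log2 difference, old minus young, was 0.07 over the 23 activating members (14 positive), 0.02 over the 14 inhibitory members (7 positive) and -0.04 over all genes tested. With young replicate 1 left out, the activating median was 0.21 (17 of 23 positive), the inhibitory median 0.02 (9 of 14 positive), and the median of all genes 0.01. Neither side as a list was tested, and the shift of the activating median rests on leaving out that library or giving it a low weight. In voom with sample quality weights the activating median was 0.16 (16 of 23 positive). There the inhibitory median was 0.01 (7 of 14 positive) and that of all genes 0.002. Counting Cd5, Cd6 and Themis as activating gave medians of 0.08 and -0.04 with all libraries.

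**Figure D2:**
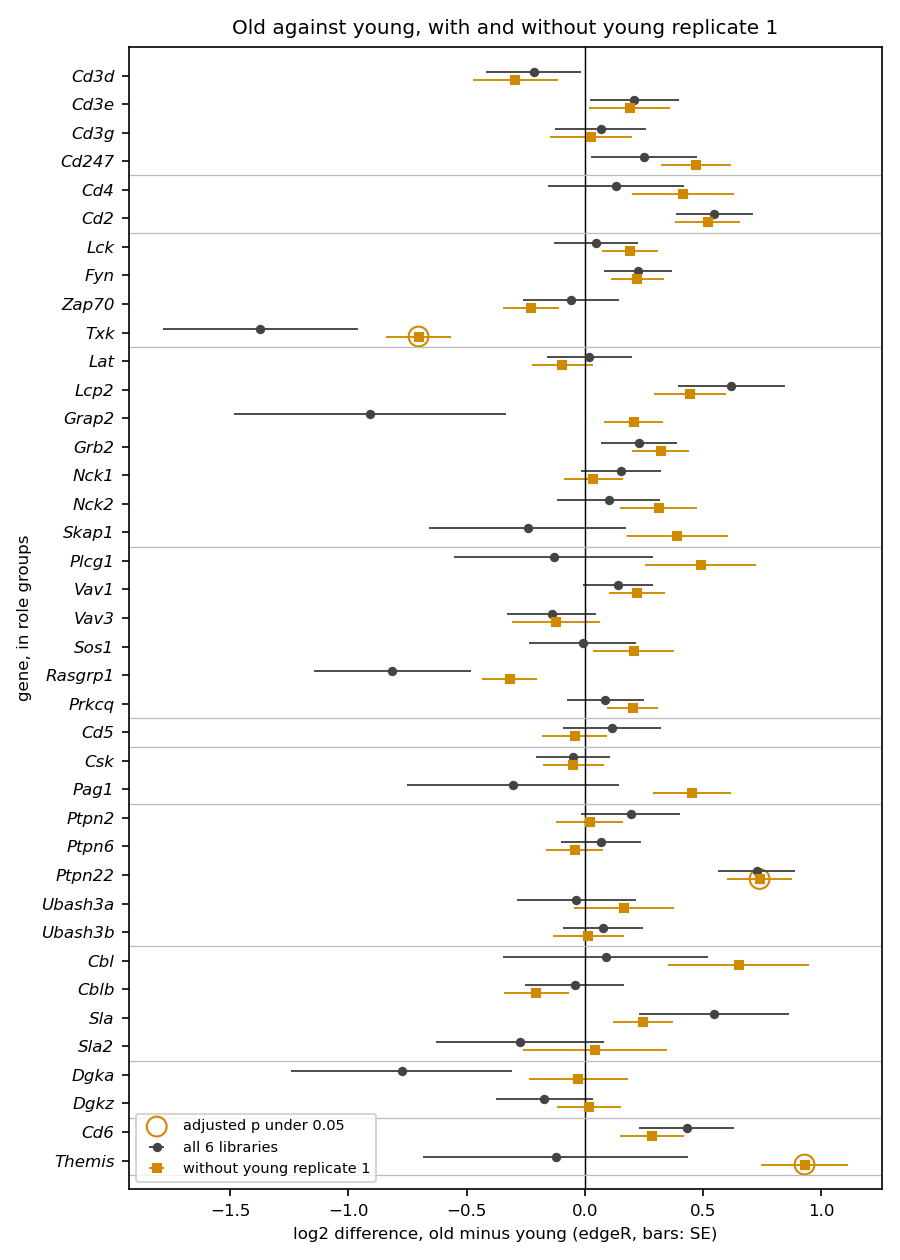
Log2 difference, old minus young, for each gene in edgeR with all 6 libraries (grey circles) and without young replicate 1 (orange squares), with bars of 1 SE on either side and open rings at an adjusted p under 0.05. Rings appear for Txk, Ptpn22 and Themis, all without young replicate 1, and the bars of Grap2, Pag1, Dgka and Themis shorten when that library is left out.

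The 4 signalling chains of the receptor, Cd3d, Cd3e, Cd3g and Cd247, differed between -0.22 and 0.25 on the log2 scale, and none passed the test in edgeR. Cd3e, which forms a dimer with either of the other CD3 chains, stood at 417, 495 and 371 CPM in young replicates 1, 2 and 3, and at 567, 428 and 488 in old replicates 1, 2 and 3. The groups overlapped, and the log2 difference was 0.21 ± 0.19 (SE, n = 3 in each group) with all libraries and 0.19 ± 0.17 without young replicate 1. Cd3d was the only chain with a negative difference (-0.22 ± 0.20, and -0.29 ± 0.18 without young replicate 1), at 210, 208 and 287 CPM in young and 234, 171 and 203 in old libraries. Its top value was young replicate 3 and the groups overlapped.

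Cd247 codes for the zeta chain, which carries the largest number of signalling motifs in the complex and is limiting for receptor assembly. Its level was 546, 389.7 and 339 CPM in young replicates 1, 2 and 3, and 554, 432 and 528 in old replicates 1, 2 and 3. Young replicate 1 sat among the old libraries, and the other 2 young libraries below them all. With all libraries the log2 difference was 0.25 ± 0.22 (SE, n = 3 in each group), and without young replicate 1 it was 0.47 ± 0.15, with an adjusted p = 0.0851 by edgeR's quasi-likelihood test, Benjamini-Hochberg adjusted (0.0190 in DESeq2). On the genome Cd247 lies at chr1:165779952-165871153 (GRCm38) and its span overlaps Pou2f1 and 2 other gene models. Spans include introns, and overlap of exons was not checked, here or for the spans named below. Only where exons overlap could reads be mixed, if the counting does not use strand.

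The table splits Cd247 into its zeta and eta forms, which share their first coding exons and differ in the last. Both are shown because the table counts them apart. The sequences run from the last shared exon (lower case, 36 bases, chr1:165859789-165859824, plus strand, GRCm38) into the coding part of the exon that belongs to 1 form alone (capitals, at chr1:165861004-165861066 for zeta and chr1:165866655-165866843 for eta). They were read from the mouse reference genome at the exons of the RefSeq transcripts. The zeta form has 164 codons and the eta form 206.
Cd247 zeta: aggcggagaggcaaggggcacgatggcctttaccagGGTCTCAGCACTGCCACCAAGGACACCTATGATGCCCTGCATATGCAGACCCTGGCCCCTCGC
Cd247 eta: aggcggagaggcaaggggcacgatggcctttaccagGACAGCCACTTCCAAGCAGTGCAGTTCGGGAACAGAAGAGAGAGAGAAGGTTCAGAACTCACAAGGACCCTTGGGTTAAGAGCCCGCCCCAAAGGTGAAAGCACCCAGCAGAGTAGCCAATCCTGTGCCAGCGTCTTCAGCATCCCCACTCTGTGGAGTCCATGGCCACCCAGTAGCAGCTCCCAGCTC
The zeta transcript held 94.1, 94.2 and 93.0% of the gene's FPKM in young libraries and 95.1, 94.7 and 94.9% in old ones. The eta transcript held 4.75, 4.89 and 6.32% in young and 4.10, 3.61 and 4.07% in old libraries. For both forms the shares of the groups did not overlap, with a mean for eta of 5.32 ± 0.87% in young and 3.93 ± 0.27% in old libraries (SD, n = 3). Zeta and eta together held nearly all of the gene's FPKM, so their shares mirror each other and count as 1 observation. How often shares separate by age over all transcripts is not given here. Neither transcript was called when tested as a transcript.

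The coreceptor Cd4 brings Lck to the receptor by binding MHC class II. It stood at 636, 452 and 319 CPM in young and 627, 511 and 404 in old libraries, with overlapping groups and a log2 change of 0.13 ± 0.29 (SE, n = 3 in each group), or 0.41 ± 0.22 without young replicate 1. Cd2, the receptor for CD48 that tightens contact with the partner cell, was separated by age. It stood at 360.0, 371 and 392 CPM in young and at 597, 473 and 573 in old libraries, so every old library was above every young one, and young replicate 1 did not stand apart here. The log2 difference was 0.55 ± 0.16 (SE, n = 3 in each group), with an adjusted p = 0.244 by edgeR's quasi-likelihood test, Benjamini-Hochberg adjusted. It was 0.52 ± 0.14 with an adjusted p = 0.0559 without young replicate 1. DESeq2 called Cd2 higher with all libraries (adjusted p = 0.0191).

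The kinases that start the signal, Lck and Zap70, differed by less than their standard errors with all libraries. Lck stood at 572, 441 and 426 CPM in young and 532, 469 and 486 in old libraries (log2 difference 0.05 ± 0.18, SE, n = 3 per group, and 0.19 ± 0.12 without young replicate 1). Zap70 stood at 361, 512 and 565 CPM in young and 451, 441 and 489 in old libraries (-0.06 ± 0.20, and -0.23 ± 0.12). In both genes the groups overlapped and young replicate 1 was at an end of the range, the top for Lck and the bottom for Zap70.

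Fyn, the second Src-family kinase of the receptor, had the smallest spread of all members, with a coefficient of variation of 2.80% in young and 1.84% in old libraries. Its values were 479.5, 494 and 467 CPM in young and 572, 562 and 551 in old libraries, so the groups did not overlap. The difference was small, 0.23 ± 0.15 (log2 scale, SE, n = 3 in each group), with an adjusted p = 0.691 by edgeR's quasi-likelihood test, Benjamini-Hochberg adjusted, and nearly the same without young replicate 1 (0.22 ± 0.11, adjusted p = 0.233). Most Fyn counts belonged to the transcript with 534 codons, the length of the T-cell form, in which an exon at the start of the kinase domain differs from that of the brain form. That transcript held 72.8 to 80.0% of the gene's FPKM in young and 77.8 to 80.9% in old libraries. Its exon (capitals, 156 bases, chr10:39529919-39530074, plus strand, GRCm38) is shown with 12 coding bases of the exon before and after it in lower case, since it identifies which Fyn the cells made.
Fyn T-form exon: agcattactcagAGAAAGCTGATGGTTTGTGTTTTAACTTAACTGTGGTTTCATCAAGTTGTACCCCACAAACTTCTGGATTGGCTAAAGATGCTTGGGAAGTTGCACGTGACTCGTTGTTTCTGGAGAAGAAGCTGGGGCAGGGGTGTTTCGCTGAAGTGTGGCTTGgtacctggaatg

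Txk is a Tec-family kinase of T cells that acts on phospholipase C gamma 1 and lies at chr5:72695978-72752992. It was the member with the largest negative difference. It stood at 75.6, 26.5 and 28.0 CPM in young and at 17.5, 16.7 and 16.0 in old libraries, and every old library lay below every young one. Young replicate 1 was 2.78 times the mean of the other young libraries. Old minus young came to -1.37 ± 0.41 (SE, n = 3 in each group), with an adjusted p = 0.247 by edgeR's quasi-likelihood test, Benjamini-Hochberg adjusted. Txk fell by 0.70 ± 0.14 on the log2 scale without young replicate 1, with an adjusted p = 0.0227 in the same test. The size of the difference was thus smaller and the p lower, in a fit that called 8.92% of all genes against 0.875%. Over all alternatives its adjusted p ran from 0.00113 to 0.66.

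Among the adaptors, Lat, the membrane scaffold that Zap70 phosphorylates, stood at 377, 446 and 525 CPM in young and 493, 426 and 447 in old libraries, with overlapping groups and a log2 change of 0.02 ± 0.18 (SE, n = 3 in each group), or -0.09 ± 0.13 without young replicate 1. Lcp2 codes for SLP-76, the cytosolic scaffold that pairs with Lat. Its values were 451, 769 and 596 CPM in young and 864, 925 and 1003 in old libraries, without overlap and with young replicate 1 the lowest. On the log2 scale Lcp2 differed by 0.62 ± 0.23 (adjusted p = 0.363 by edgeR's quasi-likelihood test, Benjamini-Hochberg adjusted). It came to 0.45 ± 0.15 without young replicate 1 (adjusted p = 0.105). DESeq2 called it there (adjusted p = 0.0266) and not with all libraries (0.171).

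Grap2, the adaptor (Gads) that links Lat to SLP-76, showed the widest spread of any member, 93.4% as a coefficient of variation in young libraries. It stood at 371 CPM in young replicate 1 and at 88.0 and 77.0 in the other young libraries, against 98.6, 98.1 and 89.4 in old ones. Its difference was -0.91 ± 0.58 on the log2 scale with all libraries and 0.21 ± 0.13 without young replicate 1, so 1 library set the direction. The remaining adaptors Grb2, Nck1, Nck2 and Skap1 had differences between -0.24 (Skap1) and 0.23 (Grb2) with all libraries, and between 0.04 (Nck1) and 0.39 (Skap1) without young replicate 1. None of the 4 was called either way.

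Of the effector enzymes and exchange factors, Vav1, an exchange factor for Rac, had the largest positive difference of its group with all libraries (0.14 ± 0.15 log2 units, SE, n = 3 in each group, and 0.22 ± 0.12 without young replicate 1). Its values were 134, 106 and 121 CPM in young and 135, 135 and 129 in old libraries, and the groups overlapped. Rasgrp1, the exchange factor that passes diacylglycerol signals to Ras, lay lower in every old library. It stood at 541, 248 and 235 CPM in young and 177, 194 and 212 in old libraries. Young replicate 1 was 2.24 times the mean of the other young libraries, and the gap between those and the old libraries was small. Old minus young came to -0.81 ± 0.33 (adjusted p = 0.434 by edgeR's quasi-likelihood test, Benjamini-Hochberg adjusted) and, without young replicate 1, -0.32 ± 0.12 (adjusted p = 0.125). Plcg1, Vav3, Sos1 and Prkcq ranged from -0.14 (Vav3) to 0.09 (Prkcq) with all libraries. When young replicate 1 was left out they ranged from -0.12 (Vav3) to 0.49 (Plcg1), with none called. The span of Plcg1 overlaps Zhx3.

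On the inhibitory side, Ptpn22, the phosphatase (PEP) that works with Csk to switch off Lck and Zap70, had the largest positive difference of all members with all libraries. It lies at chr3:103856575-103912252 and overlaps no other gene span in the annotation. Its values were 321, 347 and 277 CPM in young and 489.9, 521 and 552 in old libraries. Every old library lay above every young one, and young replicate 1 lay between the other young libraries. The log2 difference was 0.73 ± 0.16 (SE, n = 3 in each group), with an adjusted p = 0.112 by edgeR's quasi-likelihood test, Benjamini-Hochberg adjusted. Ptpn22 rose by 0.74 ± 0.14 on the log2 scale when young replicate 1 was left out, with an adjusted p = 0.0191. DESeq2 gave an adjusted p = 3.52e-04 with all libraries, and over all alternatives the value ran from 1.03e-05 to 0.498.

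The other phosphatases were not called in either fit. Ubash3a, which holds back Zap70, stood at 75.7, 59.5 and 44.6 CPM in young and 69.9, 61.6 and 44.1 in old libraries, a log2 change of -0.04 ± 0.25 (0.17 ± 0.21 without young replicate 1). Its span overlaps Rsph1. Ptpn2, Ptpn6 (SHP-1) and Ubash3b had differences of 0.07 to 0.19 with all libraries and of -0.04 to 0.02 without young replicate 1.

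Csk phosphorylates the inhibitory tyrosine of Lck and Fyn, and Pag1 anchors it at the membrane. Csk stood at 405, 419.6 and 384 CPM in young and 429.8, 391 and 347 in old libraries, with overlapping groups and a log2 change of -0.05 ± 0.16 (SE, n = 3 in each group), or -0.05 ± 0.13 without young replicate 1. Pag1 was at 102 CPM in young replicate 1 and at 34.8 and 31.6 in the other young libraries, against 41.1, 54.5 and 41.1 in old ones. The direction of Pag1 turned with that library, from -0.30 ± 0.45 to 0.45 ± 0.17, and neither value passed the test (adjusted p = 0.898 and 0.123 by edgeR's quasi-likelihood test, Benjamini-Hochberg adjusted). Cd5, a receptor that dampens receptor signals, stood at 503, 797 and 659 CPM in young and 764, 695 and 665 in old libraries, a log2 change of 0.12 ± 0.21 (-0.04 ± 0.14 without young replicate 1).

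Sla codes for SLAP, an adaptor that brings Cbl to the receptor chains. It stood at 221, 463 and 551 CPM in young and at 589, 616 and 601 in old libraries, so the groups did not overlap, and young replicate 1 was at 0.435 times the mean of the other young libraries. The log2 difference was 0.55 ± 0.32 (SE, n = 3 in each group) and 0.25 ± 0.13 without young replicate 1, not called in either fit. Sla lies within the span of the thyroglobulin gene Tg. Its relative Sla2 stood at 31.4, 20.5 and 15.5 CPM in young and 26.2, 17.6 and 11.97 in old libraries, with overlapping groups and a difference of -0.27 ± 0.36 (0.04 ± 0.31). Cbl itself was at 168 CPM in young replicate 1 and 161 in old replicate 2, and between 64.5 and 83.6 in the other 4 libraries. Its difference was 0.09 ± 0.43 with all libraries and 0.65 ± 0.30 without young replicate 1. Cblb, the ligase that sets the need for costimulation, differed by -0.04 ± 0.21 and by -0.20 ± 0.14. Neither ligase was called.

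The diacylglycerol kinases Dgka and Dgkz remove the diacylglycerol that recruits Rasgrp1 and protein kinase C theta. Dgka stood at 1214 CPM in young replicate 1, the highest value of any member in any library, and at 414 and 384 in the other young libraries, against 510.1, 367 and 299 in old ones. The difference was -0.77 ± 0.47 (log2 scale, SE, n = 3 in each group) with all libraries and -0.03 ± 0.21 without young replicate 1. Dgkz stood at 588, 407 and 419 CPM in young and 463, 429 and 364 in old libraries, a difference of -0.17 ± 0.20 (0.02 ± 0.13). In both genes the groups overlapped and young replicate 1 was the highest. The span of Dgka overlaps Pmel.

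Cd6, in neither class, is a receptor related to Cd5 that binds CD166 and has been given both stimulating and restraining roles. It stood at 461, 715 and 576 CPM in young and 768, 803 and 791 in old libraries, without overlap. The log2 difference was 0.43 ± 0.20 (SE, n = 3 per group, adjusted p = 0.529 by edgeR's quasi-likelihood test, Benjamini-Hochberg adjusted), and 0.28 ± 0.14 without young replicate 1 (adjusted p = 0.212). Themis tunes receptor signals through Ptpn6 and is best known from thymic selection. It lies at chr10:28668360-28883820 (GRCm38). It stood at 70.5 CPM in young replicate 1 and at 17.7 and 15.6 in the other young libraries, while old libraries held 36.1, 33.4 and 25.8, between these extremes. With all libraries the difference was -0.12 ± 0.56 on the log2 scale. Without young replicate 1 Themis rose by 0.93 ± 0.18, with an adjusted p = 0.0226 by edgeR's quasi-likelihood test, Benjamini-Hochberg adjusted. Over all alternatives its adjusted p ran from 3.22e-04 to 0.9998. All 3 old libraries lay between young replicate 1 and the other young ones for 8 of 39 members, against 22.6% of all genes, near the share for the members (20.5%).

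**Figure D3:**
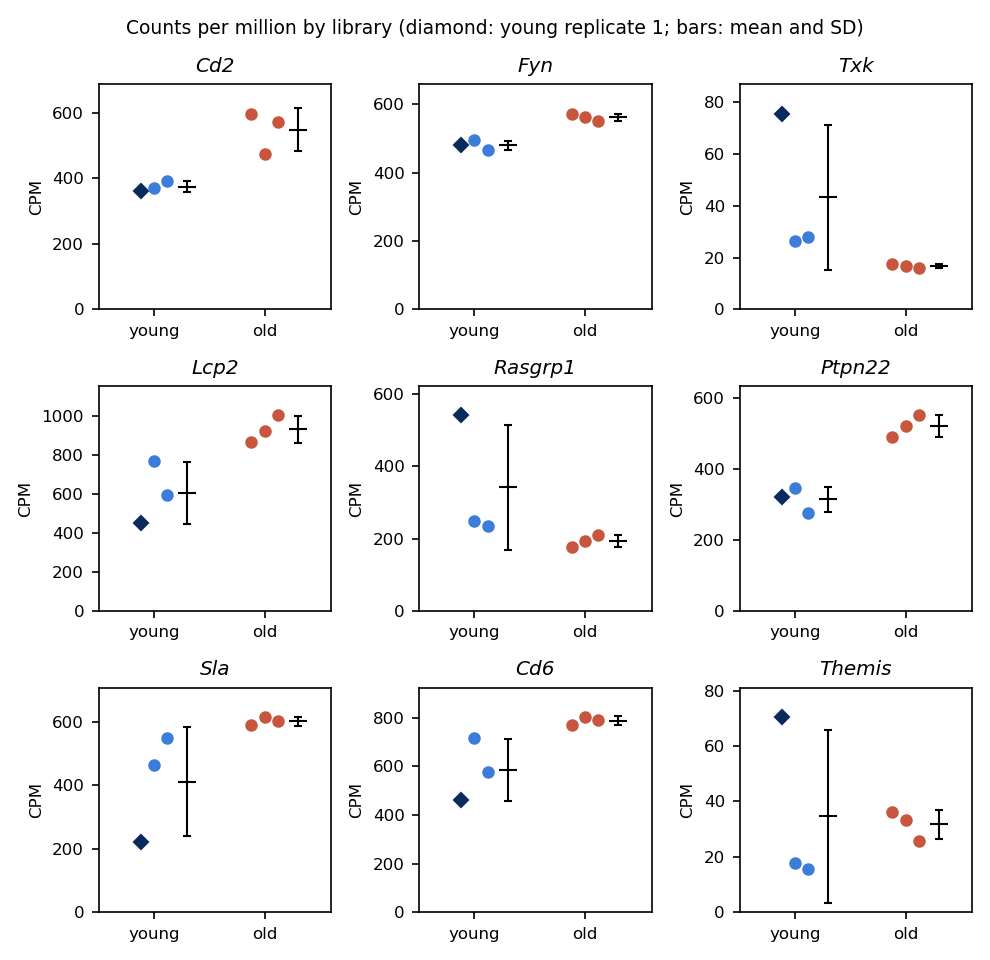
CPM of 9 genes in each library (points, young replicate 1 as a dark diamond), with the mean and SD of each group of 3 beside them; every axis starts at 0. Old points lie above all young points for Cd2, Fyn, Lcp2, Ptpn22, Sla and Cd6, below them for Txk and Rasgrp1, and between young replicate 1 and the other young libraries for Themis.

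The promoters of the 3 members called without young replicate 1 are shown as the 250 bases before a start site, since no other member passed edgeR's test in either fit. The start is that of the transcript with most of the counts for Ptpn22 and Txk, and that of NM_178666.6 for Themis. Sequences are from the RefSeq promoter table on GRCm38.p6, which holds 32 of the 39 members. They were searched on both strands for an NFAT core (GGAAA), an AP-1 site (TGANTCA), an Ets site (CGGAAG) and a Runx site (TGTGGT), of which the first and the third share the letters GGAA. Capitals mark matches, written as they run on the gene's strand. Ptpn22 is at chr3:103860027-103860276 (plus strand), Txk at chr5:72752778-72753027 (minus strand) and Themis at chr10:28668110-28668359 (plus strand).
Ptpn22: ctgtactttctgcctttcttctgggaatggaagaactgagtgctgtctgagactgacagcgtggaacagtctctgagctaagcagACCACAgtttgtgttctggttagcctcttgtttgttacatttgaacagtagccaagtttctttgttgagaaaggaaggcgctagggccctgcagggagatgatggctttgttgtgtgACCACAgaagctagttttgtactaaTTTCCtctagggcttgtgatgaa
Txk: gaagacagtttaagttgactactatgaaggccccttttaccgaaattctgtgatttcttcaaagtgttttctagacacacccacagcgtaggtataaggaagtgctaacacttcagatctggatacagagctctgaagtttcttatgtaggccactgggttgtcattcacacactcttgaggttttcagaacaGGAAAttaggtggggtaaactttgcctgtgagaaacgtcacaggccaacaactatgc
Themis: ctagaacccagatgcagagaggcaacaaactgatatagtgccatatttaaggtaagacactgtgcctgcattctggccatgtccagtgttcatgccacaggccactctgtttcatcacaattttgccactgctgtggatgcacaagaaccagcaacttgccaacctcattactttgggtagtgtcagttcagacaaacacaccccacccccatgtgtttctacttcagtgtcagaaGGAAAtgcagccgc
Each of the 3 windows held 1 NFAT core, starting 23, 57 and 14 bases before the start of Ptpn22, Txk and Themis. Such a core is in 55.6% of all 32851 promoters of that length. The Ptpn22 window also held 2 Runx matches, which are in 14% of promoters. No AP-1 or Ets match was found in these windows (6.75% and 13.6% of promoters have one). A match describes the letters and not a bound site.

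Related genes were compared within a library, where the scaling between libraries drops out. Over 7 pairs of related members, the log2 ratio of FPKM was tested between the ages with an exact two-sided permutation test. The smallest p that this exact permutation test can give with 3 libraries against 3 is 0.1. The exact p ran from 0.2 to 1.0 and, adjusted over the 7 pairs, from 0.7 to 1.0, so this test could not have passed 0.05 for any ratio, and the values are given as a description. Vav1 to Vav3 was 3.06, 2.63 and 2.52 in young and 2.83, 3.12 and 3.15 in old libraries, where young replicates 2 and 3 lay below all old libraries and young replicate 1 lay among them. The widest shift was that of Sla to Sla2, 4.11 ± 1.16 in young and 5.12 ± 0.65 in old libraries (log2, SD, n = 3), with an exact permutation p = 0.3, and the shift came to 0.35 without young replicate 1. Lck to Fyn was 0.99, 0.59 and 0.62 in young and 0.66, 0.49 and 0.58 in old libraries, so Lck held more transcripts per length than Fyn in every library. Cbl was below Cblb in every library, at -1.70, -3.56 and -3.52 in young and -2.96, -2.23 and -3.08 in old ones. Ubash3a and Ubash3b were close to each other, between -0.91 and 0.17. Dgka was above Dgkz throughout (0.13 to 1.499, the top being young replicate 1), as was Nck1 above Nck2 (0.94 to 1.97).

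**Figure D4:**
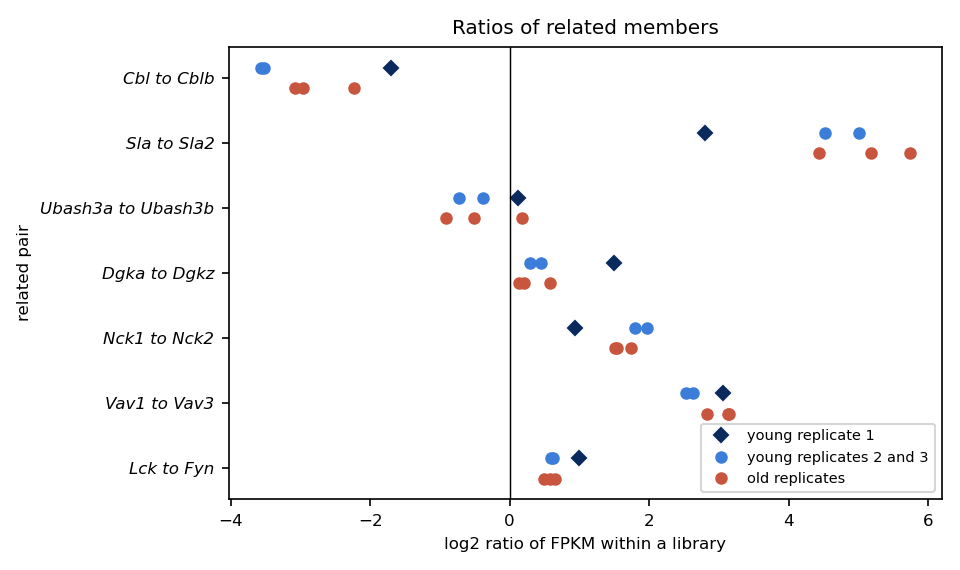
Log2 ratio of the FPKM of 7 related pairs within each library, with young replicate 1 as dark diamonds, young replicates 2 and 3 in blue and old replicates in red; 0 is an equal level. Young replicate 1 lies outside the range of the other libraries for Cbl to Cblb, Sla to Sla2, Dgka to Dgkz, Nck1 to Nck2 and Lck to Fyn, and inside it for the other pairs.

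By level per length, members spanned from Vav3 (4.27 ± 0.49 FPKM in young and 3.90 ± 0.61 in old libraries, SD, n = 3) to Cd2 (330.0 ± 3.59 and 486 ± 55.8). The receptor chains lay near the top, with Cd3g at 329 ± 11.9 and 348 ± 78.9 FPKM, Cd3e at 297 ± 47.1 and 345 ± 49.4, Cd247 at 254 ± 71.5 and 301 ± 38.2, and Cd3d at 230.3 ± 37.8 and 198 ± 29.3. The ranges of Cd3g, Cd3e and Cd247 overlapped in both groups, while Cd3d (205 to 274 FPKM in young and 170.0 to 228 in old libraries) lay below Cd3g (321 to 343 and 292 to 439) in every library. Lat (356 ± 47.4 and 364 ± 29.6), Cd5 (314 ± 68.1 and 344 ± 29.6) and Lck (231 ± 45.4 and 241 ± 18.1) were of the same order. Inhibitory genes spread over much of the scale, from Cd5 at the top through Dgka (248 ± 179 and 145 ± 42.5) and Ptpn22 (112.8 ± 15.04 and 187 ± 8.83) down to Sla2 (8.52 ± 3.06 and 6.89 ± 3.10) and Pag1 (7.06 ± 5.15 and 5.69 ± 0.97). Themis, at 7.34 ± 6.69 and 7.06 ± 1.62 FPKM, and Txk, at 19.2 ± 12.9 and 7.40 ± 0.46, were among the low ones.

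**Figure D5:**
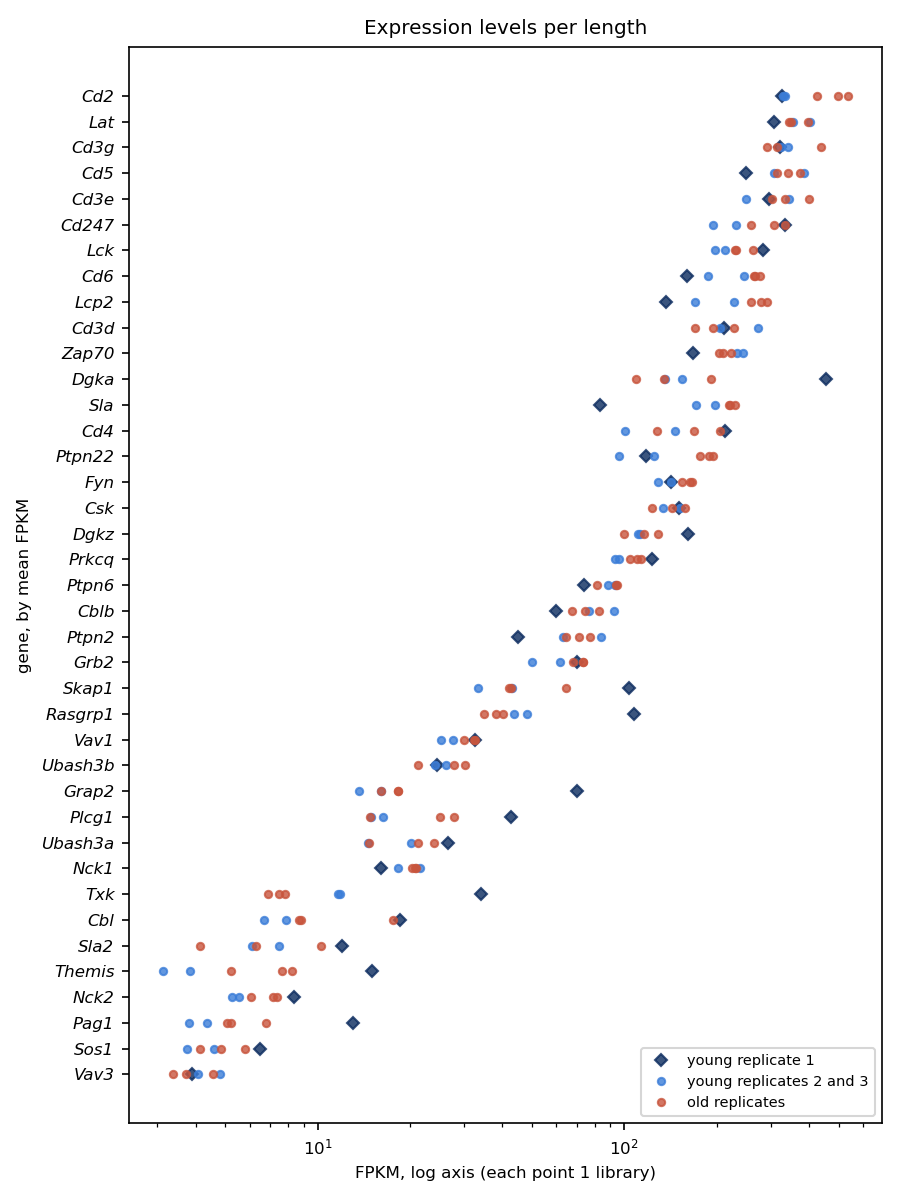
FPKM of each of the 39 genes in each library on a log axis, ordered by the mean over 6 libraries from Cd2 at the top to Vav3 at the bottom (young replicate 1 as dark diamonds, other young libraries in blue, old libraries in red). Young replicate 1 lies to the right of the other points for Dgka, Skap1, Rasgrp1, Grap2, Txk, Themis and Pag1, and to the left for Sla.

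Transcripts of the members were tested on their own as well. Of 158 member transcripts in the table, 106 had a mean FPKM of at least 1, and 0 of them were called by edgeR, where 0% of 20128 transcripts were. Without young replicate 1, 0 of 104 were called, against 0% of 19738. Ptpn22 counts lay almost whole in NM_008979.2, with 92.0 to 96.8% of the gene's FPKM over the 6 libraries, and Txk counts in NM_001122754.2, with 90.1 to 100%. Shares moved most within Dgka. XM_011243351.1 held 22.6, 29.4 and 4.85% in young and 40.7, 16.0 and 63.0% in old libraries, with overlap, and XM_017313786.1 held 22.5, 32.7 and 45.2% in young and 18.7, 19.2 and 1.31% in old libraries, without overlap. Themis counts lay mostly in XM_006512643.1 (66.0, 88.0 and 76.4% in young and 60.2, 54.8 and 63.2% in old libraries, without overlap) and NM_178666.6 (7.57 to 36.8% over the 6 libraries), whose start was used for the promoter. A further transcript, XR_871437.1, held 27.1% in old replicate 2 and at most 4.44% in the other libraries. The division of shared reads among transcripts is a model estimate whose error is not in these values. How often shares separate by age over all transcripts is not given, so the shares without overlap have no background beside them.

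Other genes of the pathway, 27 activating and 19 inhibitory ones that were tested, were described in the same way. With all libraries 0 of 46 were called by edgeR, where 0.875% of all genes were. An unadjusted p under 0.05 was reached by 9 (19.6%), against 10.6% of all genes. In DESeq2 2 passed (Ptprj and Lax1), or 4.35% against 4.77%. The median log2 difference was 0.03 over the activating and 0.14 over the inhibitory genes, of which 15 of 27 and 15 of 19 were positive, against 44.9% of all genes. Without young replicate 1, 5 of 46 genes were called (10.9%, against 8.92% of all genes), all of them inhibitory. Ptprj, the phosphatase CD148, rose by 1.71 ± 0.25 on the log2 scale (SE), with an adjusted p = 0.00885 by edgeR's quasi-likelihood test, Benjamini-Hochberg adjusted. It stood at 14.9, 11.1 and 7.88 CPM in young and 31.8, 37.8 and 23.6 in old libraries. Lax1, an adaptor that competes with Lat for Grb2, rose by 1.07 ± 0.21 (42.1, 40.2 and 34.9 CPM in young and 102, 72.0 and 62.8 in old libraries). In both genes the groups did not overlap, and the difference was of like size with all libraries (1.46 ± 0.29 and 1.01 ± 0.21).

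The inositol phosphatase Inpp5d (SHIP-1) rose by 0.67 ± 0.15 and the ligase Peli1 by 0.56 ± 0.11 without young replicate 1, where with all libraries they differed by 0.32 ± 0.27 and 0.14 ± 0.29. Map4k1 (HPK1), a kinase that marks SLP-76 for degradation, fell by 0.63 ± 0.14 (142, 158 and 183 CPM in young and 125, 109.8 and 97.1 in old libraries, without overlap). Nf1, a Ras inhibitor, was higher in every old library (25.5, 27.4 and 22.6 CPM in young against 30.1, 38.8 and 37.8) and not called. The inhibitory genes of this second list had a median of 0.36 without young replicate 1, with 18 of 19 positive. Its activating genes had a median of 0.17, with 22 of 27 positive, and all genes one of 0.01, with 51.0% positive.

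None of the other activating genes was called in edgeR with or without young replicate 1. Trat1, an adaptor (TRIM) that sits with the zeta chain, was the lowest, at 187, 119 and 109 CPM in young and 81.9, 77.0 and 103 in old libraries (log2 difference -0.66 ± 0.24, SE, n = 3 per group). Tespa1, a partner of phospholipase C gamma 1, stood at 41.0, 37.3 and 29.7 CPM in young and 45.5, 47.1 and 59.6 in old libraries (0.49 ± 0.19). Groups did not overlap for Trat1 and Tespa1. Wipf1, which holds the actin regulator WASP, was at 298, 339 and 317 CPM in young and 391, 395 and 337 in old libraries (0.24 ± 0.15), with overlap at the edge.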

How the data were processed

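Per the file headers, the authors deposited 1 table of 66712 RefSeq transcripts in which every library has a column of expected counts and a column of FPKM. The submitters' processing notes name Bowtie, RSEM and the build GRCm38 (mm10), with no version. Annotation release, strand setting and read filters were not given in the sources used here. Ambiguous reads are shared out by RSEM as an estimate, so the deposited expected counts are not always whole. The deposited FPKM correct for transcript length and library size and serve here for levels between genes and for ratios within a library.

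Both quantities were added up within each of 19977 Entrez genes, of which 19830 matched a RefSeq symbol. The 147 without a match held 0.121 to 0.211% of a library's counts. Sums were rounded to whole counts and tested with edgeR 4.0.16 in R 4.3.3 (quasi-likelihood, TMM, no block) over the 10509 genes whose mean FPKM was 1 or more, with Benjamini-Hochberg adjustment over all genes and a threshold of 0.05. The standard error is the log2 difference over the root of the F statistic. The scripts were tested on simulated data. Alternatives used DESeq2 1.42.0, limma 3.58.1 (pseudocounts of 1, 0.1 and 0.01, and voom with sample weights), RLE or no factors, other filters, a replicate block and leaving out each library. Robust edgeR and DESeq2 without young replicate 1 were added after seeing the data.

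The members, their classes and all lists were chosen with earlier results of these data known. Values are printed for members with an unadjusted p under 0.05 or groups that do not overlap, for Cd3e, Cd247, Cd4, Lck, Zap70 and Lat, and for the largest difference in each direction of each role group. Of other pathway genes, those called and the 4 of each class with the smallest p are printed, and Inpp5d and Peli1 were added since they were called without young replicate 1. Of the genes this rule selects, 1 is not reported here. Sequences come from GRCm38 with GENCODE M21 exons matched to RefSeq transcripts, and from a RefSeq promoter table. No amino acid sequence was used here.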

Additional observations from a re-analysis of the deposited data

How the results depend on the processing

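Single libraries moved the count of called genes. It was 92 with all libraries, 203 with no filter, 55 with a mean FPKM of at least 5, 501 in DESeq2, 656 in voom with sample weights and 1799 in DESeq2 without young replicate 1, and between 0 and 930 when 1 library was left out (930 without young replicate 1, 0 without young replicate 2). Members called higher numbered 2 in DESeq2, 1 in voom with sample weights, 5 in DESeq2 without young replicate 1 and 0 to 2 on leaving out 1 library. Members called lower numbered 1, 1, 1 and 0 to 1 in the same fits. Other pathway genes (46 tested with the main filter) called higher numbered 1 with no filter, 1 with the replicate block, 2 in DESeq2, 2 in voom with sample weights, 9 in DESeq2 without young replicate 1 and 0 to 4 on leaving out 1 library, and those called lower 1 in voom with sample weights, 1 in DESeq2 without young replicate 1 and 0 to 1. Of all genes, 3.56% were called higher in DESeq2, 4.74% in voom with sample weights and 9.59% in DESeq2 without young replicate 1. The shares called lower were 1.21%, 1.5% and 7.67%. In edgeR without young replicate 1 they were 5.97% higher and 2.94% lower. Such shares are not given here for the fits with no filter, with the replicate block or without another single library. The median of activating members was 0.20 in DESeq2 without young replicate 1 and -0.004 to 0.21 on leaving out 1 library, and that of inhibitory members -0.06 to 0.04. In voom with sample weights the activating median was 0.16. The cause of these shifts was not tested.

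The numbers of the replicates are not said to mark a shared mouse or day. Deviations of same-numbered libraries correlated at 0.232, -0.025 and 0.209, and those of differently numbered ones at -0.348 to 0.36. With 3 libraries per group these values cannot decide whether the numbers pair the samples. With the replicate block 119 genes were called, and no member.

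On leaving out 1 library, log2 differences of members printed by library turned sign for Cd4 (-0.093 to 0.41), Lck (-0.042 to 0.19), Zap70 (-0.23 to 0.069), Lat (-0.094 to 0.14), Grap2 (-1.28 to 0.21), Cd5 (-0.042 to 0.28), Csk (-0.13 to 0.026), Pag1 (-0.60 to 0.45), Ubash3a (-0.22 to 0.17), Sla2 (-0.60 to 0.044), Dgkz (-0.27 to 0.018) and Themis (-0.48 to 0.93). Among the remaining members they turned sign for Cd3g (-0.12 to 0.16), Nck2 (-0.01 to 0.31), Skap1 (-0.53 to 0.39), Plcg1 (-0.38 to 0.49), Sos1 (-0.16 to 0.21), Ptpn6 (-0.04 to 0.15), Cbl (-0.30 to 0.65) and Cblb (-0.20 to 0.11). The same held for the log2 ratios of Cbl to Cblb (-0.15 to 0.78), Ubash3a to Ubash3b (-0.39 to 0.16) and Nck1 to Nck2 (-0.28 to 0.23). In DESeq2 without young replicate 1 the turned values were -0.10 for Lat, 0.20 for Grap2, -0.048 for Cd5, 0.45 for Pag1, 0.16 for Ubash3a, 0.037 for Sla2, 0.012 for Dgkz and 0.92 for Themis. In voom with sample weights they were -0.043 for Lat, 0.08 for Grap2, -0.07 for Cd5, 0.37 for Pag1, 0.042 for Ubash3a and 0.79 for Themis. Themis was also positive with the replicate block (0.23) and in limma (0.21, 0.28 and 0.29 with pseudocounts of 1, 0.1 and 0.01), and Ubash3a was at 0.001 with no filter. Of 592 pairs of a named gene and an alternative, 528 kept direction and side of the threshold, 27 passed it anew and 37 turned sign. Limma, RLE factors, library totals alone and robust edgeR called 0 members, where limma with a pseudocount of 1 called 0.942% of genes. The share of all genes called is not given here for the other fits named, so their 0 members have no background beside them.

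Every member had at least 220 counts in each library. Libraries differed by more than counting error, with a chi-square per degree of freedom of at least 26.3 between any 2 of them. At this spread, and with 3 libraries per group, edgeR did not call a difference such as that of Cd2 (0.55) or Ptpn22 (0.73), so a member that was not called is not shown to be equal between the ages.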
